A study of Mus musculus with 7 samples.

Results

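The libraries described here are the wild-type controls of a mouse study of endometrial epithelium: 3 libraries of the 7 in the series, taken by their genotype label, Control wild-type. Each holds RNA from EPCAM-positive uterine cells of pooled CD-1 mice that carried no engineered allele by their labels. The other 4 libraries, from mice with a Brg1 deletion driven by LtfCre, are not used. The labels mark all 3 control libraries as first flow cell and as taken over from an earlier deposit, and they give no age, cycle stage or number of mice per pool. Nothing in them says whether the pools shared mice, so the spread given below is that between pools. Uteri were minced, digested with enzymes and sorted on magnetic beads against the surface protein EPCAM.

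The endometrial epithelium lines the uterine lumen as a single layer of polarised cells and extends into the stroma as glands. It secretes proteins into the lumen, forms a barrier through tight and adherens junctions, and answers estrogen and progesterone over the estrous cycle and at implantation. Lactoferrin, encoded by Ltf, is a secreted iron-binding protein and a classical estrogen-responsive product of this epithelium, and LtfCre is expressed under its control.

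Between 21372036 and 25862245 reads per library fell on genes, and 22865 to 23063 genes had a read. A count of 3 reads, used as the detection floor, corresponded to 0.116 to 0.140 counts per 1000000 gene reads (CPM). Levels of different genes are compared in transcripts per 1000000 (TPM), which also divides by gene length, and 1 gene is compared between libraries in CPM. Values of a gene are given for replicates 1, 2 and 3 in that order, and "ratio" means the highest over the lowest library in CPM. At 1 TPM or more in every library stood 13095 genes, referred to as expressed, of which 11619 were protein-coding. Of the expressed genes, 6971 were at 10 TPM or more in every library and 1226 at 100 TPM or more. TPM is a share, and 6 loci outside the protein-coding set, picked after their values were seen, moved it: Gm42418, Gm26917, Gm23935, Mir6236, Gm15564 and n-R5-8s1, the last annotated as ribosomal RNA, took 4.09%, 14.0% and 10.99% of all TPM. Protein-coding genes were left with 92.7%, 83.3% and 86.5% of TPM, but with 98.0%, 96.4% and 96.9% of gene reads. Some genes below have their lowest TPM in replicate 2 while their CPM are close. Others were lowest there by CPM too, such as Cldn4 at 3047, 2291 and 3403 CPM and Gprc5a at 1057, 544 and 896 CPM. By CPM replicate 2 was lowest in 4418 of the 13095 expressed genes.

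All 5 epithelial markers were abundant and steady. Krt18 and Krt8, which encode the paired keratins of simple epithelia, were at 6322 ± 418 and 4893 ± 381 TPM (SD, n = 3 pools, as throughout). Ltf was at 2552, 2173 and 2741 TPM, Cdh1 (E-cadherin, the main adhesion protein of epithelial cells) at 1833, 1328 and 1457 TPM, and Epcam at 1181, 956 and 1129 TPM. Their ratios in CPM lay between 1.13 for Epcam and 1.26 for Krt18, and the 3 libraries were close for each. The gene Ltf spans chr9:111019271-111042767 and Epcam chr17:87635979-87651129 (GRCm38). Of the words of 50 bases in Krt8, 26.9% also occur in other genes, so its level is less certain than that of Krt18.

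The highest levels belonged to secreted proteins. Prss29 and Prss28, neighbouring genes for serine proteases known as implantation serine proteinases and made in uterine glands, had the highest means among nuclear protein-coding genes. Prss29 was at 25186.5, 61426 and 14429 TPM, and Prss28 at 12879.7, 38620.0 and 4487 TPM. Replicate 2 was highest and replicate 3 lowest for both proteases, with ratios of 4.45 and 9.003. Their means of 33680.5 and 18662 TPM became 19808 and 8683 TPM without replicate 2. The pair made up 1.37%, 4.15% and 0.746% of gene reads. They lie head to tail on chromosome 17, Prss28 at chr17:25308646-25311876 and Prss29 at chr17:25318654-25322684. Also near the top stood Sprr2f on chromosome 3, at chr3:92365187-92366442, which encodes a small proline-rich protein of the cornified envelope family that is estrogen-responsive in uterus. Its level was 21812, 9863 and 15903 TPM, highest in replicate 1, with a ratio of 1.92.

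The sequences just upstream of these 3 genes are shown because the genes are among the most abundant and the 2 proteases moved together between the pools. They are a selection and not the 3 highest genes. Prap1, with a mean of 17882 TPM against 15859 TPM for Sprr2f, is not shown. Each run is the 120 bases before the annotated start (RefSeq, GRCm38.p6, plus strand, 5′ to 3′), at chr17:25308526-25308645 for Prss28, chr17:25318534-25318653 for Prss29 and chr3:92365067-92365186 for Sprr2f. Capitals mark the letters TATAAA, the core of a TATA box.

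Prss28: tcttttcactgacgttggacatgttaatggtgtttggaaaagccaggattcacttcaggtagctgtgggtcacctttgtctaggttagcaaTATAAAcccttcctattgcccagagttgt

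Prss29: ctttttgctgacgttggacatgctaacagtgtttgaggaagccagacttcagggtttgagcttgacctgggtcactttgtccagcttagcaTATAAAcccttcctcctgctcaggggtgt

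Sprr2f: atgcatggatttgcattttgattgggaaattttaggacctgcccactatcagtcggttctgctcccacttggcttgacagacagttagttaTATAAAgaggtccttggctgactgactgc

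In all 3 sequences TATAAA begins 29 bases before the start. Searched on both strands in the 250 bases upstream, these letters occur in 12.37% of the 32851 promoters of the table. They occur in 8 of the 23 genes among the 30 most abundant that the table holds, namely Ccn1, Eef2, Errfi1, Plet1, Prss28, Prss29, Sprr1a and Sprr2f. Here a gene counts if any of its promoters matches, while the 12.37% is a share of promoters, so the 2 shares differ in unit. The 8 include the 3 genes shown. Aligned end to end with gaps allowed, the upstream runs of Prss28 and Prss29 have 93 of 120 bases identical (77.5%), against 58.3% for Prss28 and Sprr2f. A match of letters is a description and not evidence of a bound factor.

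Prap1, for a proline-rich acidic protein secreted by uterine epithelium, was at 7425, 6278 and 39944 TPM. Replicate 3 stood 6.08-fold above the lowest pool in CPM, and the mean of 17882 TPM became 6852 TPM without it. Counted without regard to strand, which drops reads where genes on both strands overlap, the mean was 9146 TPM. Spink1, a secreted inhibitor of trypsin-like proteases, followed the order of the proteases at 3784, 9470.1 and 2343 TPM, with a ratio of 4.23 and a mean of 3063 TPM without replicate 2. Clusterin, the secreted chaperone encoded by Clu, was close in replicates 1 and 2 and low in replicate 3, at 3891, 4155 and 1022 TPM. Complement C3, which is estrogen-responsive in rodent uterus, was at 6431, 3846 and 7226 TPM, and lipocalin 2 (Lcn2), an iron-siderophore-binding defence protein, at 3804, 2398 and 3919 TPM. Replicate 2 was lowest for both, with ratios of 1.80 and 1.56. By the longest transcript instead of all exons the means of Lcn2 and Clu were 5190 and 4640 TPM, against 3374 and 3022 TPM. Of 48 secretory and defence genes 38 were expressed, 24 of them at 100 TPM or more, and 14 of the 38 had a ratio above 2, as had 11.6% of all expressed genes. That list does not hold Prss28 and Prss29, and its summed level was 64164, 52170 and 87410 TPM. Of its members 7, among them Scgb1a1, Scgb2a2 and Camp, had 3 reads or fewer in each library.

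**Figure D1:**
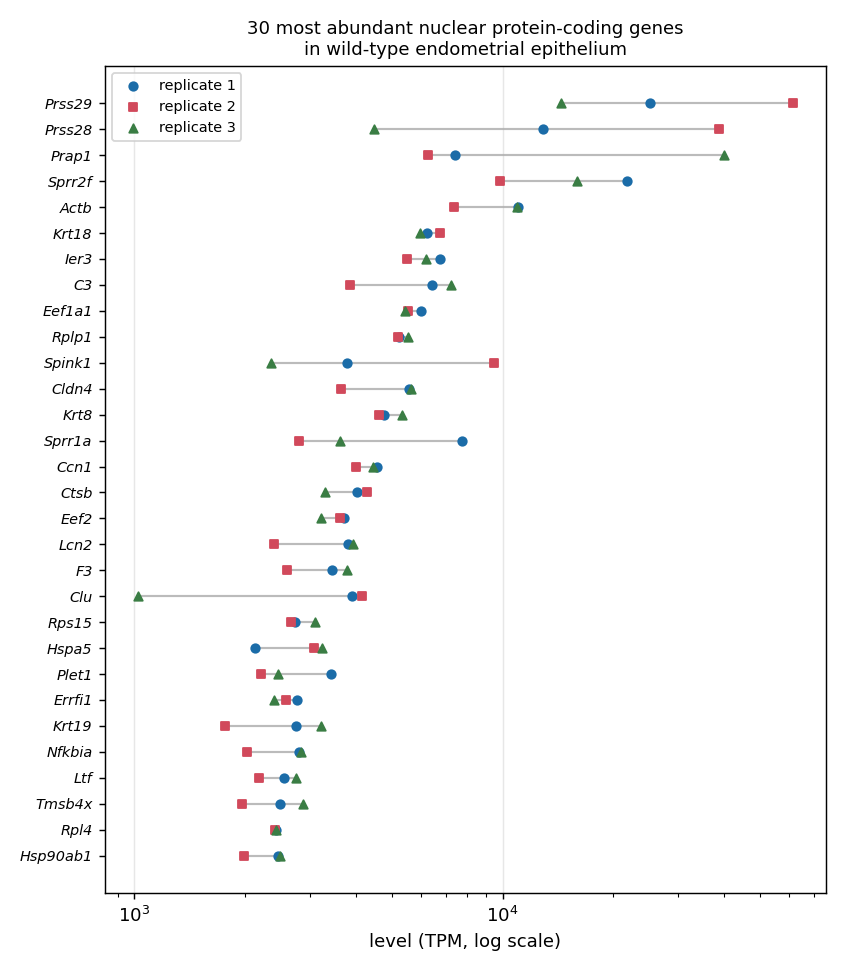
Level in TPM (log scale) of the 30 nuclear protein-coding genes with the highest mean, one marker per library and a grey line from lowest to highest. Prss29, Prss28, Prap1, Spink1 and Clu span more than 4-fold in CPM between the pools, while the ratio is at most 1.26 for Krt18, Krt8, Ier3 and Ltf.

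The rest of the 30 were structural, translation and response genes. Actb, beta-actin, was at 9768 ± 2073 TPM, and the translation factors Eef1a1 and Eef2 at 5655 ± 309 and 3507 ± 268 TPM. Eef1a1 and the ribosomal protein gene Rplp1 (5324 ± 175 TPM) have near-copies elsewhere, with 39.4% and 60.0% of their words of 50 bases in common, which makes their levels uncertain. Ier3, an immediate early gene, had a ratio of only 1.07 at 6742, 5506 and 6180.2 TPM. Ccn1, a matricellular protein induced early by serum and stretch, was at 4334 ± 303 TPM, and Errfi1, a feedback inhibitor of EGF receptor signalling, at 2582 ± 184 TPM. F3, tissue factor, the cell-surface starter of coagulation, was at 3276 ± 608 TPM. Sprr1a, a squamous envelope protein, was highest in replicate 1 at 7735, 2797 and 3617 TPM. The 100 most abundant genes together held 36.3%, 46.4% and 41.1% of TPM.

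Among keratins and surface coat genes, all 6 simple epithelial keratins were expressed. Krt19 was at 2747, 1762 and 3221 TPM, Krt23 at 915 ± 102 TPM and Krt7 at 758 ± 169 TPM. Of 12 squamous and basal genes 9 were expressed. Krt17 was even at 134, 126 and 156 TPM, and Krt4 was at 113, 97.7 and 43.3 TPM. Mucin genes were led by Muc1, the cell-surface mucin of the uterine lumen, at 977, 516 and 809 TPM, and by Muc4 at 473, 313 and 545 TPM. The glycoprotein gene Cd24a was at 1513 ± 420 TPM, the tetraspanin gene Cd9 at 1175 ± 152 TPM, and Prom1, for an apical membrane protein, at 414, 375 and 277 TPM.

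Transcription factors were led by the AP-1 and Kruppel-like families. All 20 genes of the AP-1, immediate early and stress list were expressed, 17 of them at 100 TPM or more. None had a ratio above 2, against 11.6% of all expressed genes. The share was 5.50% among protein-coding genes with at least 100 reads and 5 TPM on average. Jund was at 2078, 1999 and 1975 TPM, Junb at 1369 ± 153 TPM and Fos at 1116, 1201 and 767 TPM. Counted on both strands Jund was at 747 TPM. These are genes that tissue digestion and sorting are known to induce in many tissues, and no undigested epithelium is among these libraries, so a level in the uterus and one acquired in handling cannot be told apart. Klf6 was at 1713, 1221 and 1308 TPM, Klf4, a regulator of epithelial differentiation, at 1087, 754 and 717 TPM, and Klf5 at 386, 246 and 445 TPM. Of 16 Kruppel-like genes 12 were expressed, and Klf1 and Klf17 lay at the floor. Klf9, a progesterone receptor partner in uterus, was lower in replicate 3 at 93.3, 83.8 and 43.0 TPM.

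Factors that hold epithelial identity stood in the next rank. Elf3, an epithelium-specific ETS factor, was at 855, 677 and 894 TPM, Tfcp2l1 at 180 ± 51.4 TPM and Ehf, also of the ETS family, at 156 ± 25.3 TPM. Esrp1, an epithelial splicing regulator, was at 79.5, 78.4 and 78.7 TPM. The EMT list, the factors that repress E-cadherin and drive mesenchymal change, held 4 expressed of 10 genes and none at 10 TPM or more. Its highest member, Tcf4, was at 6.36 ± 0.404 TPM by the length of all exons and at 16.4 TPM by its longest transcript, and Snai1 was at 5.29, 3.16 and 2.66 TPM. Hnf4a and Cdx2, factors of gut and liver epithelium, were at the floor.

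Developmental factors of the Müllerian duct, the embryonic origin of the uterus, were expressed below the mean levels of Elf3, Tfcp2l1 and Ehf. Pax8 was at 80.0, 76.1 and 83.5 TPM, Emx2 at 74.9, 63.7 and 48.2 TPM, and Msx1, needed in mouse uterus for implantation, at 101, 74.9 and 65.7 TPM. Of 18 genes 14 were expressed, and Lhx1, which acts in the embryonic duct, had no read. In the Hox family 8 of 31 genes were expressed, and the 5 highest were all of the HoxB cluster. Hoxb6 was at 76.4, 79.6 and 74.0 TPM, Hoxb8 at 58.1, 65.0 and 41.8 TPM, Hoxb7 at 27.6 ± 2.55 TPM, Hoxb4 at 15.9 ± 0.347 TPM and Hoxb5 at 11.9 ± 0.599 TPM. Hoxa10 and Hoxa11, uterine patterning genes singled out after their values were seen, were at 0.703, 0.578 and 0.214 TPM and at 1.07, 0.472 and 0.765 TPM. Another 10 Hox genes, among them Hoxa4, Hoxa6, Hoxa7 and Hoxa13, had 3 reads or fewer in each library.

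Sox9, a progenitor and gland factor, led the Sox, Fox and Gata list at 412, 358 and 224 TPM, lowest in replicate 3. Foxa2, the factor needed for uterine gland formation, was at 85.4, 55.8 and 35.4 TPM with a ratio of 2.19. Foxo1 was at 110 ± 15.6 TPM and Gata2, an upstream partner of the progesterone receptor, at 82.9, 65.4 and 72.7 TPM. Among mediators of signalling, Rela (NF-kB) was at 276 ± 43.0 TPM, Smad3 at 260 ± 27.3 TPM and Stat3, which carries the LIF signal in this epithelium, at 232, 219 and 202 TPM. Ctnnb1, beta-catenin of junctions and Wnt signalling, was at 561, 377 and 521 TPM, and the Hippo cofactor gene Wwtr1 at 146 ± 17.2 TPM.

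Of 9 steroid receptor genes 6 were expressed. Esr1, estrogen receptor alpha, was at 98.9, 90.8 and 81.5 TPM (157 TPM on average by its longest transcript), and Pgr, the progesterone receptor, at 13.3, 11.6 and 10.1 TPM. Both were highest in replicate 1 by TPM but in replicate 2 by CPM, Esr1 at 407, 430 and 369 CPM and Pgr at 34.2, 34.4 and 28.7 CPM. Their ratios were 1.17 and 1.199. The glucocorticoid receptor gene Nr3c1 was at 12.4 ± 3.44 TPM and the membrane progesterone-binding gene Pgrmc1 at 229 ± 13.4 TPM. Esr2, estrogen receptor beta, had 1, 4 and 2 reads. Among genes known to follow these hormones or implantation, 27 of 29 were expressed and 10 of the 27 had a ratio above 2 (11.6% of all expressed genes). Clca1 was at 1847, 837 and 773 TPM, the water channel genes Aqp5 at 713, 861 and 417 TPM and Aqp8 at 219, 286 and 61.6 TPM, and the estrogen-induced gene Greb1 at 72.1, 55.3 and 27.4 TPM. Aqp8, Aqp5 and Greb1 were lowest in replicate 3, with ratios of 4.86, 2.16 and 2.39. Scnn1g and Ptgs2 were highest there instead, with ratios of 4.21 and 2.07. Of the 27 genes 12 were highest in replicate 3 (36.6% of all expressed genes) and 9 lowest (36.9% of all), so the list had no common direction. Ihh, the progesterone-induced hedgehog ligand of the epithelium, was low at 1.31, 2.97 and 3.67 TPM, and Calca, also progesterone-induced, at 2.001, 2.64 and 4.22 TPM. Ihh and Calca do not stand for the list, as the median of the 27 expressed genes was 60.4 TPM. Areg, the amphiregulin gene, was at 66.1, 36.5 and 42.0 TPM, Cyp26a1 at 103, 44.4 and 48.9 TPM, and Acod1 at 33.1, 24.3 and 29.3 TPM.

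**Figure D2:**
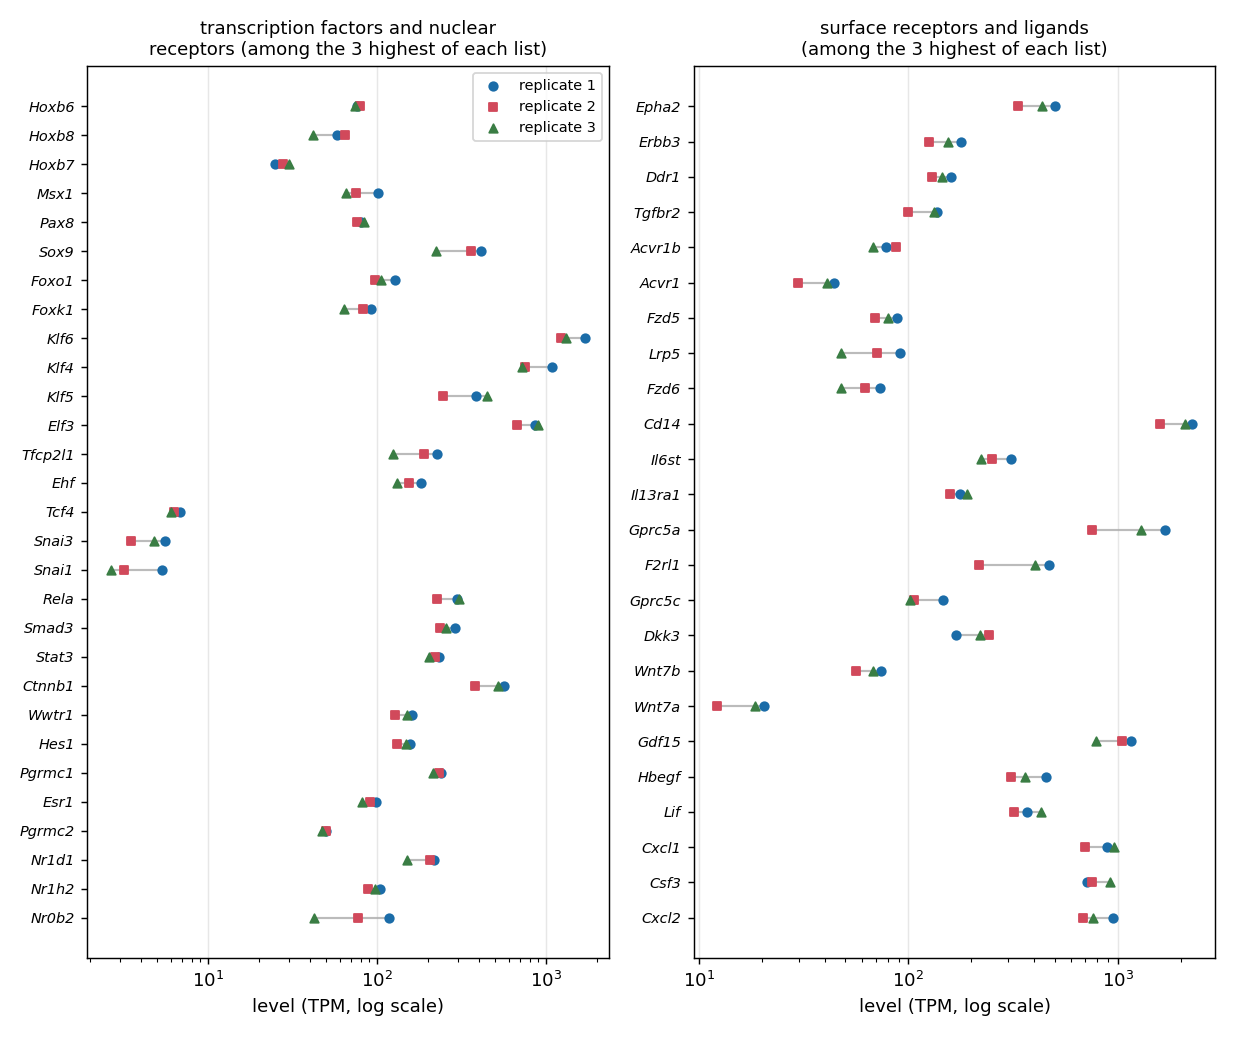
Levels in TPM (log scale) of genes among the 3 highest of each list of transcription factors and nuclear receptors (left) and of surface receptors and ligands (right), one marker per library. In the left panel, which leaves out the AP-1 list, Klf6 and Klf4 have the highest levels, EMT factors lie below 10 TPM, and Cd14 and Gprc5a lead the right panel.

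Surface receptors were headed by Cd14, a co-receptor for bacterial lipopolysaccharide, at 2264, 1592 and 2103 TPM. Il6st, the shared gp130 chain through which LIF signals, was at 308, 251 and 224 TPM, Il13ra1 at 175 ± 16.7 TPM and Tnfrsf1a at 114 ± 13.6 TPM. Of 36 cytokine and innate receptors 33 were expressed. In the receptor tyrosine kinase list 25 of 33 were expressed: Epha2 was at 501, 333 and 435 TPM, Erbb3 at 153 ± 26.1 TPM, the HGF receptor gene Met at 160, 96.6 and 166 TPM, and Fgfr2, an epithelial FGF receptor, at 91.8 ± 10.7 TPM (173 TPM by its longest transcript). Erbb2 was among the 10 steadiest genes of the data, at 41.8, 35.9 and 37.7 TPM with 1423, 1386 and 1684 reads and a ratio of 1.01. The G protein-coupled receptor list was led by Gprc5a, a retinoic acid-induced orphan receptor, at 1685, 753 and 1298 TPM and by F2rl1, a receptor cut open by trypsin-like proteases, at 469.7, 217 and 404 TPM.

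Wnt and TGF-beta family receptors were expressed broadly and at lower levels. Of 25 Wnt, Notch and Hedgehog receptors 20 were expressed and none reached 100 TPM in every library. Fzd5 was at 79.0 ± 9.49 TPM, Lrp5 at 91.1, 71.0 and 47.7 TPM, and the R-spondin receptor genes Lgr4 and Lgr5 at 49.0 ± 12.8 and 2.87 ± 0.737 TPM (Lgr5 at 4.97 TPM by its longest transcript). Of 13 TGF-beta family receptors 12 were expressed, led by Tgfbr2 at 137, 99.9 and 132 TPM.

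The ligands included several with known roles at implantation. Lif, the cytokine required for implantation in mouse, was at 371, 319.6 and 429.5 TPM with a ratio of 1.28. Hbegf, an EGF-family ligand of the attachment site, was at 455, 308 and 361 TPM. Gdf15, a stress-induced TGF-beta relative, led the growth factor list at 1163, 1045 and 789.8 TPM, and Vegfa was at 305 ± 56.7 TPM. Igf2, Shh and Dhh had 3 reads or fewer per library, but 61.2% of the 50-base words of Igf2 are shared with other genes. In the Wnt list 12 of 27 were expressed. The modulator gene Dkk3 was at 168, 244 and 220 TPM, Wnt7b at 74.3, 56.4 and 67.6 TPM, and Wnt7a, the ligand of the luminal epithelium needed for uterine patterning, at 20.3, 12.2 and 18.4 TPM. Wnt1, Wnt3, Wnt3a and Wnt6 had no read. The floor of 3 reads limits what could be seen of them.

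Chemokine and cytokine genes were a prominent group, 28 of 32 expressed and 12 of the 28 with a ratio above 2, against 11.6% of all expressed genes. Cxcl1 and Cxcl2, neutrophil attractants encoded side by side on chromosome 5, were at 893, 700 and 956 TPM and at 953, 682 and 759 TPM. Csf3, the neutrophil growth factor G-CSF, was at 799 ± 111 TPM and Il1a, an alarm cytokine of epithelia, at 719, 516 and 927 TPM. Cxcl17 was highest in replicate 1 at 1049, 411 and 477 TPM. Their regulator gene Nfkbia, the NF-kB inhibitor that NF-kB itself induces, was at 2804, 2023 and 2842 TPM. The upstream sequences of the 2 chemokine genes are shown because both are abundant neighbours known as NF-kB targets. They are the 120 bases before each start (RefSeq, GRCm38.p6, plus strand, 5′ to 3′), at chr5:90891125-90891244 and chr5:90903779-90903898, with the longest run of letters that both have in common in capitals.

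Cxcl1: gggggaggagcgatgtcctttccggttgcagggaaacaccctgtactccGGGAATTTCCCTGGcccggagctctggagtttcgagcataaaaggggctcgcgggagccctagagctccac

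Cxcl2: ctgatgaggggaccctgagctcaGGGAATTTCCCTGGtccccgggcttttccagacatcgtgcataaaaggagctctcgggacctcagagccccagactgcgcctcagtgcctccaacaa

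The common run GGGAATTTCCCTGG is 14 bases long and opens with the letters of a classical NF-kB site. It begins 71 bases before the start of Cxcl1 and 97 bases before that of Cxcl2. On both strands of the 250 upstream bases it occurs in 2 of 32851 promoters, those of Cxcl1 and Cxcl2. The run was taken from these 2 promoters, so its presence in both was given, and a run of 14 bases is rare by its length. How many promoters hold the letters of an NF-kB site alone was not counted. Aligned end to end with gaps allowed, the pair has 61.7% of 120 bases identical, little above the 58.3% of Prss28 and Sprr2f aligned the same way.

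Among junction genes, 11 of 19 claudins, which form the tight junction seal between epithelial cells, were expressed, with a median of 50.5 TPM. Cldn4 was at 5574, 3638 and 5652 TPM, Cldn7 at 1230 ± 282 TPM and Cldn3 at 1067 ± 170 TPM. Cldn10 was lowest in replicate 3 at 369, 364 and 166 TPM, and Cldn2, which forms cation pores, was highest in replicate 1 at 15.4, 5.19 and 2.28 TPM. Cldn9, Cldn14, Cldn16, Cldn18 and Cldn19 were at the floor. Other tight junction and polarity genes were expressed in 24 of 25 cases, none with a ratio above 2 (11.6% of all expressed genes). The share above 2 was 5.50% among protein-coding genes with at least 100 reads and 5 TPM on average. In this list the adhesion gene F11r was at 277 ± 40.9 TPM and the polarity gene Pard6b at 340 ± 79.1 TPM. The tricellular junction gene Lsr was at 371 ± 71.7 TPM on its own strand and 152 TPM when both strands were counted.

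Adherens junction genes other than Cdh1 and Ctnnb1 were led by Vcl (412 ± 78.9 TPM; 248 TPM unstranded), Ctnna1 (374 ± 55.7 TPM) and Jup (300 ± 62.8 TPM; 486 TPM by its longest transcript). Cdh2, N-cadherin, singled out after its values were seen, had 5, 6 and 8 reads. Desmosomes were represented by 10 of 14 genes, with Perp at 434 ± 92.5 TPM, the plaque gene Dsp at 288, 240 and 255 TPM, and Dsg1a without a read. Gap junction genes were led by Gjb2 at 345, 221 and 329 TPM, above Gjb1 at 31.7, 40.1 and 32.2 TPM. Of 31 genes for hemidesmosomes, integrins and laminins 28 were expressed, with Itgb1 at 470 ± 72.5 TPM and Itga6 at 294 ± 26.3 TPM (497 TPM by its longest transcript).

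Markers of other cells were lower than the epithelial ones, with exceptions. In bulk RNA fewer cells of a type and less RNA per cell cannot be told apart. Endothelial genes summed to 13.6 to 18.3 TPM over 10 genes, with Pecam1 at 3.42, 3.10 and 2.77 TPM. The 12 stromal genes summed to 570, 552 and 966 TPM, where Fbln1 stood apart in replicate 3 at 219, 222 and 681 TPM (mean 220 TPM without replicate 3, against 374 TPM) and Col1a1 was even at 72.4, 81.7 and 69.5 TPM. Smooth muscle genes summed to 76.1 to 140 TPM, with Acta2 at 91.2, 42.3 and 47.2 TPM. In the immune list, summing to 823 to 1216 TPM, Lyz2 was at 442, 386 and 365 TPM (15.4% of its words shared), Cd74 at 379, 217 and 199 TPM, Cd68 at 286, 144 and 222 TPM, and the pan-leukocyte gene Ptprc at 2.58 to 4.35 TPM. Ppbp, a chemokine gene first known from platelets, was at 1447, 710 and 1766 TPM while its platelet partner Pf4 was at 50.1, 26.6 and 38.2 TPM and Gp9 had no read. Hba-a1 and Hbb-bt had no read either, but 72.3% and 58.3% of their words are shared with other genes, so reads of them need not be counted for any gene. Of 10 ciliated cell genes 5 were expressed. Their highest, Cfap43, was at 39.3, 34.6 and 38.3 TPM, above the median of 14.2 TPM over all expressed genes. Foxj1, the master factor of motile cilia, was low at 6.72, 2.62 and 2.76 TPM. Of the mesothelial genes apart from Krt19, the highest was Msln at 11.5, 20.6 and 11.9 TPM.

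**Figure D3:**
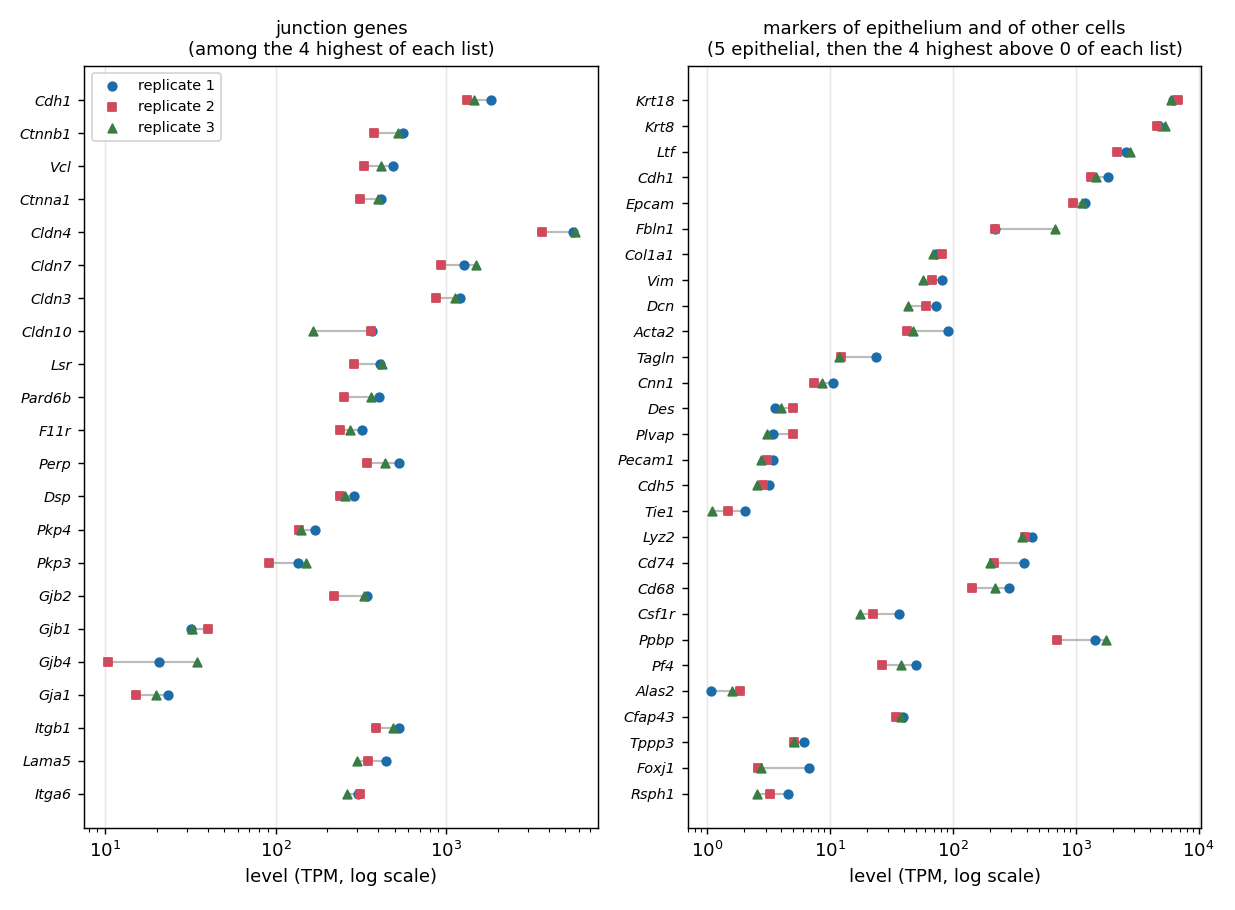
Levels in TPM (log scale) of genes among the 4 highest of each junction list (left) and of markers of epithelium and other cells (right), one marker per library. Cldn4 leads the junction genes, the 5 epithelial markers lie near or above 1000 TPM, and endothelial, smooth muscle and ciliated genes lie below 100 TPM.

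Over all expressed genes the pools were similar but differed by more than counting error. The median coefficient of variation of CPM was 15.2%, against 4.68% from counting alone, and it was above the counting value in 11568 of 13095 genes. The median SD was 0.22 in log2 CPM, and edgeR estimated a common biological coefficient of variation of 21.9%. Pearson's r across genes, which are not replicates, was 0.983, 0.979 and 0.978 for the pairs of replicates 1 and 2, 1 and 3, and 2 and 3. As a check for a library deposited more than once, the counts of each pair were compared (chi-square per degree of freedom from 62.0 to 100.2), and all 3 were kept as separate samples. More than 2-fold between the highest and the lowest pool stood 1518 genes (11.6%), of which 205 passed 4-fold and 27 passed 10-fold. With a mean of at least 100 reads and 5 TPM there were 9042 protein-coding genes, and 497 of these (5.50%) passed 2-fold. Replicate 3 was most often apart: it was over 2-fold above both others in 56 genes and below both in 85, against 18 and 21 for replicate 1 and 31 and 11 for replicate 2.

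**Figure D4:**
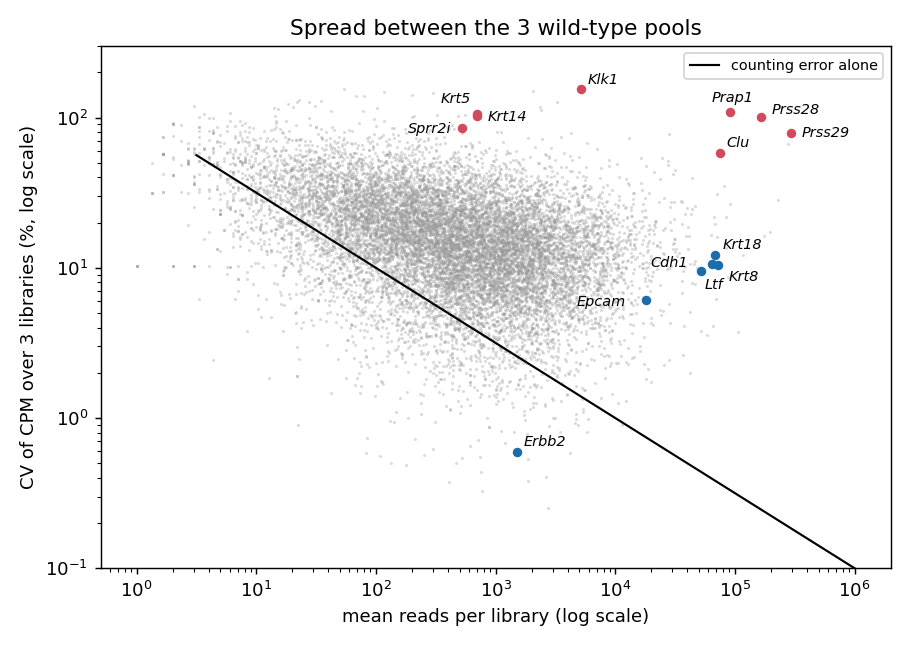
Coefficient of variation of CPM over the 3 libraries (%, log scale) against mean reads per library (log scale) for the expressed genes, with the line that counting error alone would give. Red points are named genes above 50% and blue points named genes below it: the protease genes, Prap1, Klk1, Krt5 and Krt14 lie far above the line at high counts, and Erbb2 lies below it.

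Among these 9042 genes the largest ratio was that of a basal keratin gene. Krt5 was at 0.767, 32.5 and 83.0 TPM (11, 530 and 1564 reads, 119-fold) and its partner Krt14 at 3.49, 39.1 and 102 TPM (32.2-fold), both lowest in replicate 1 and highest in replicate 3. Their means of 38.8 and 48.2 TPM became 16.7 and 21.3 TPM without replicate 3. Of the words of Krt14, 13.9% are shared with other genes. Trp63, the factor of basal cells that drives these keratins and was looked up after their values were seen, had 2, 18 and 18 reads. Krt17, by contrast, had a ratio of 1.28. Sprr2i ran otherwise, at 202, 3.94 and 139 TPM with 815, 18 and 733 reads, low in replicate 2 only (12.5% of its words shared, mean 71.2 TPM without replicate 1).

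Several other genes among the 15 largest ratios were highest in replicate 3. Klk1, for tissue kallikrein, was at 82.9, 47.6 and 1561 TPM (583, 380 and 14421 reads), and its paralogue Klk1b21 at 6.51, 3.41 and 32.8 TPM. They share 23.97% and 29.1% of their words with other genes, and reads that map to several places count for no gene, so their levels may be understated. The membrane carbonic anhydrase gene Car4 was at 3.04, 3.02 and 48.9 TPM, the cadherin gene Cdh16 at 2.38, 3.20 and 30.5 TPM, the aspartic protease gene Napsa at 31.4, 47.3 and 367 TPM, and the steroid-converting enzyme gene Hsd11b1 at 3.24, 9.68 and 34.5 TPM. The secretory chaperone gene Scg5 was at 1.37, 4.30 and 39.9 TPM and the drug transporter gene Abcb1b at 7.59, 15.5 and 83.9 TPM. Krt84, a keratin gene, was at 34.8, 42.5 and 252 TPM. Replicates 1 and 2 were close for Car4, while Hsd11b1 and Abcb1b were already higher in replicate 2 than in replicate 1. Without replicate 3 the mean of Klk1 was 65.3 TPM, of Napsa 39.3 TPM, of Abcb1b 11.6 TPM, of Hsd11b1 6.46 TPM, of Car4 3.03 TPM, of Scg5 2.83 TPM, of Cdh16 2.79 TPM, of Klk1b21 4.96 TPM and of Krt84 38.7 TPM. Genes of the secretory and defence list were also most often highest in this pool, 22 of 38 against 36.6% of all expressed genes. Prss28 and Prss29 are not in that list.

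Most gland genes ran the other way. Of 13 expressed, 9 were lowest in replicate 3 (36.9% of all expressed genes) and 7 highest in replicate 2 (33.5% of all), and 6 had a ratio above 2, with a median ratio of 1.74 against 1.34 over all expressed genes. Those 13 include Prss28, Prss29, Spink1, Foxa2 and Sox9 described above. Axin2, a Wnt target gene, was at 34.1, 32.8 and 24.8 TPM. Cxcl15, a glandular chemokine gene, was highest in replicate 3 at 5.69, 11.2 and 12.4 TPM, as were Wfdc3 at 16.7, 19.9 and 20.9 TPM and Ttr at 23.2, 25.3 and 34.1 TPM. These 3 and Aldh1a1, at 14.3, 27.2 and 17.8 TPM (mean 33.6 TPM by its longest transcript), were lowest in replicate 1. Replicate 2 was also highest for Gstm7 (11.9, 69.8 and 25.1 TPM), Habp2 (13.6, 36.1 and 7.74 TPM) and the factor gene Klf15 (3.57, 9.57 and 2.88 TPM). Their means without replicate 2 were 18.5, 10.7 and 3.23 TPM.

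Cell cycle genes differed between the pools in the same direction. All 20 cell cycle genes were expressed and all 20 were highest in replicate 3 by CPM, where 36.6% of all expressed genes were highest, and 16 were lowest in replicate 1, as were 29.4% of all. Mki67, the proliferation antigen, was at 20.9, 23.3 and 32.7 TPM, Top2a at 37.0, 39.9 and 60.5 TPM and the mitotic kinase gene Cdk1 at 7.98, 9.65 and 20.3 TPM. The replication genes Mcm5 and Mcm3 were lowest in replicate 2 instead, at 50.2, 29.7 and 54.0 TPM and at 64.9, 36.9 and 63.99 TPM. In all, 6 of the 20 had a ratio above 2, as had 11.6% of all expressed genes, the largest being 2.80 for Cdk1.

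**Figure D5:**
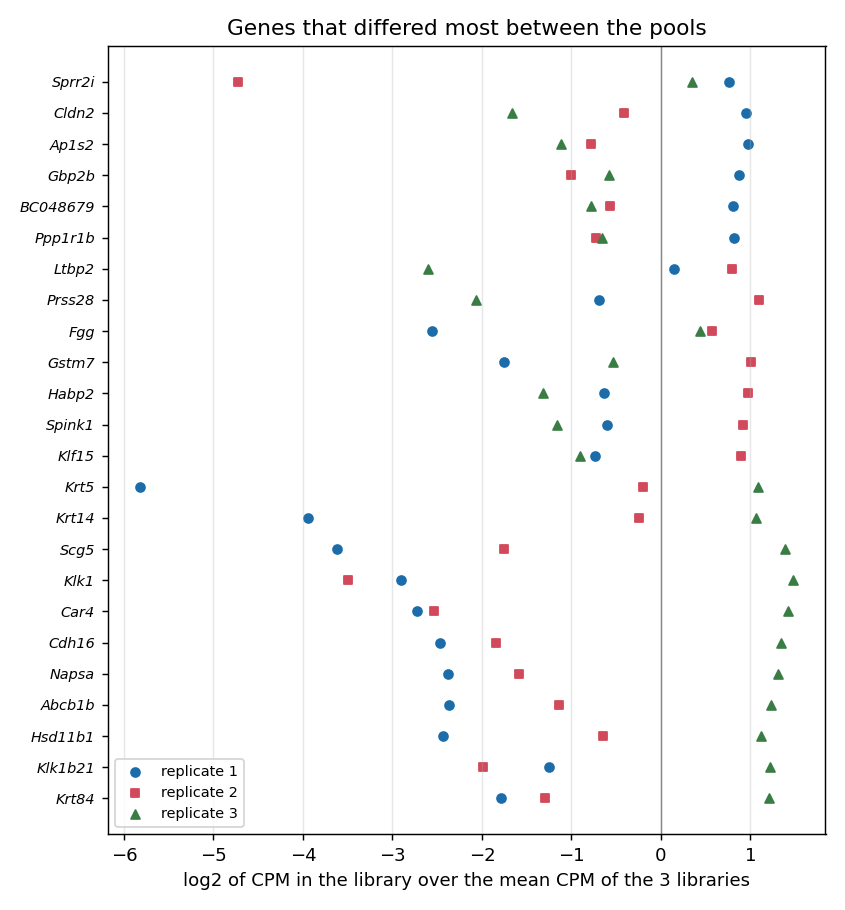
For the genes that differed most between the pools, log2 of the CPM of each library over the mean of the 3, grouped by the library that was highest. Krt5 and Krt14 lie lowest in replicate 1, Sprr2i in replicate 2, and 11 genes from Krt5 to Krt84 are highest in replicate 3.

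The 10 genes with the smallest ratios, among those with at least 1000 reads on average, were Cish, Maz, Itch, Dmxl1, Srsf6, Erbb2, Ccdc9, Chchd10, Mark4 and Aes. Cish, an inhibitor of cytokine signalling, was at 62.4, 53.9 and 56.7 TPM with 2615, 2566 and 3119 reads (36.4 TPM on average unstranded), a ratio of 1.004. The factor gene Maz, the ubiquitin ligase gene Itch and the splicing factor gene Srsf6 had ratios of 1.01, as had Erbb2. These ratios are smaller than counting error gives on average, and the genes were picked for it.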

How the data were processed

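RNA of magnetically sorted EPCAM-positive uterine cells was made into directional KAPA mRNA libraries, per the labels' protocols. The authors deposited raw whole-number counts of reads per gene, not normalized, in an unstranded and in both stranded columns. The tools named per the submitters' processing notes are Trim Galore, cutadapt, FastQC, STAR and DESeq2, with mm10 as the build and no versions. The read length is not known here.

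The reverse-stranded counts of the 3 wild-type libraries were used, since they held 95.0% to 95.6% of both stranded columns. Unmapped (3.90% to 4.81% of reads), multimapping (10.3% to 11.2%), geneless (12.3% to 14.7%) and ambiguous reads (0.827% to 0.869%) stayed out of all totals. Multimapping reads count for no gene, so genes with near-identical copies are understated, and shared 50-base words mark them. Of 53379 gene IDs, 53274 matched GENCODE M21 (GRCm38), which gave symbols and exon lengths. CPM are per 1000000 gene reads, and TPM use the union of exons over all matched genes.

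With 1 group there was no test, and values are means ± SD of 3 pools or each library's value. Named genes are the 30 most abundant nuclear protein-coding genes, the 5 markers, up to 5 highest members of each of 42 lists (785 of 788 symbols matched), all members of the hormone, gland and cell cycle lists where needed, members with at most 3 reads per library, the 15 largest ratios (at least 100 reads and 5 TPM on average), the 10 smallest (at least 1000 reads) and up to 5 genes highest in each library. The members and lists were chosen with earlier results of these data known. The alternatives were unstranded counts, longest transcript length, other totals, TMM (edgeR 4.0.16), DESeq2 1.42.0 size factors, other thresholds and leaving out each library. A protein-coding total and a filter of 100 reads were added after seeing the data. The steps that find differing genes were tested on simulated counts with known changes and counting error alone. The real pools differed by more than counting error, so that test does not show how the 2-fold cut behaves at their spread. A few genes that these rules name are not reported here.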

Additional observations from a re-analysis of the deposited data

How the results depend on the processing

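Under unstranded counts, longest transcript length, totals without mitochondrial genes, TMM and DESeq2 size factors, the number of expressed genes ranged from 12956 to 13689. The median SD of log2 CPM was 0.25 with a filter of 10 reads on average, 0.19 with a pseudocount of 1 CPM, and 0.20 with a filter of 100 reads chosen after seeing the data. The same 3 settings gave 2658, 689 and 709 genes over 2-fold. Leaving out each library gave a median SD of 0.16 (without replicate 3) to 0.21 and 684 (without replicate 3) to 922 genes over 2-fold, with only 2 libraries behind each. At 0.5 TPM, 7 EMT factors were expressed. At 5 TPM, the number expressed was 1 for EMT factors, 12 for Wnt, Notch and Hedgehog receptors, 7 for Wnt ligands, 19 for growth factors, 2 for ciliated, 10 for adherens junction, 3 for smooth muscle, 0 for endothelial, 6 for immune, 3 for mesothelial and 1 for ovary and oviduct genes. Of 286 named genes, longest transcript length moved 18 means by more than 1.5-fold and unstranded counting 11. With a protein-coding total the median named gene was 1.14 times as high. No paired analysis was possible because there is 1 group and its results come from no test. Age, cycle stage and pool size, which the labels do not give for these pools, were not tested, and 3 pools give a rough SD.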

Other observations

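Of the 13 protein-coding mitochondrial genes, 7 were expressed, all highest in replicate 1 by CPM, where 29.9% of all expressed genes were highest. mt-Co1, with 51.1% of its 50-base words also in other genes, was at 12007, 8170.3 and 10028 TPM and mt-Cytb at 12358, 8381 and 9173 TPM. The other 6, mt-Co2, mt-Co3, mt-Atp6, mt-Atp8, mt-Nd3 and mt-Nd4l, had at most 1 read in each library. For 5 of these, 98.0% to 100% of the 50-base words also occur in other genes, and for mt-Atp8 none do. Why mt-Atp8 had no read was not tested. Mitochondrial genes made up 1.87%, 1.44% and 1.47% of gene reads.

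Other nuclear receptors were expressed for 22 of 35 genes, and 15 of the 22 were lowest in replicate 3, as were 36.9% of all expressed genes. The clock repressor gene Nr1d1 was at 217, 205 and 150 TPM and its relative Nr1d2 at 81.0, 82.6 and 59.4 TPM. Nr0b2, a corepressor known from bile acid signalling, was at 118, 77.1 and 42.5 TPM. Nr0b1, Nr5a2 and Rxrg had no read.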
